A study of Sus scrofa with 9 samples.

Results

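Testis RNA of a boar carrying the reciprocal translocation t(1;14) was compared with testis RNA of control boars and of an oligospermic boar, and 218 oligonucleotide probes gave a signal well above background in the t(1;14) testis alone. The 218 probes were selected on their detection flags: each was well above background on all 3 t(1;14) arrays and on none of the 3 control and 3 oligospermic arrays. They were 0.358% of the 60889 probes of the array that are not control spots. The same rule turned round found 23 probes detected only in the controls and 15 detected only in the oligospermic testis, while 33676 probes were detected on all 9 arrays and 16272 on none. In the opposite direction, 326 probes were detected on all 6 control and oligospermic arrays and on no t(1;14) array. Because the values of these arrays chose the probes, the differences of the 218 probes are described below without a test, and each fold is a lower limit.

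The t(1;14) boar was a Landrace × Duroc crossbred with few, poorly motile and misshapen spermatozoa, and the translocation joins parts of chromosomes 1 and 14. The oligospermic boar had too few spermatozoa and a normal karyotype. The controls had a normal karyotype and normal semen. The t(1;14) and oligospermic groups hold 3 arrays of 1 boar each, and the sources do not settle whether each control array holds 1 fertile boar or a pool. The spread between arrays is therefore that of samples from the same animals in those groups, and nothing here separates the translocation from the other ways in which 1 boar differs from others. No treatment was given, and ages were not used here.

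A testis is made of seminiferous tubules, in which germ cells develop from spermatogonia through meiosis to spermatids in contact with Sertoli cells, and of an interstitium that holds Leydig cells, the source of androgens, with vessels and macrophages. An array probe is a DNA oligonucleotide fixed to a glass slide, and the brightness of its spot after hybridization with labelled RNA rises with the amount of the matching transcript. A spot counted as well above background when its background-subtracted intensity was over 5 times the additive error that the scanner software had estimated for that array. In whole tissue, more cells of a type and more RNA per cell cannot be told apart.

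All the probes are 60 bases long. The sequences of the probes that carry the description are printed here 5′ to 3′ as deposited, so that a reader can see what was hybridized. Capitals mark the longest run that a probe shares with another of the 218, where that run is at least 30 bases. The first set holds genes represented by more than 1 of the 218 probes.
FABP1, probe CUST_4548_PI428644611: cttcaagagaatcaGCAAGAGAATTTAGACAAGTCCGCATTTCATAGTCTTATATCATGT
FABP1, probe A_72_P176371: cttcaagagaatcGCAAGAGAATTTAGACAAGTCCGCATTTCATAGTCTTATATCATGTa
FABP1, probe A_72_P761584: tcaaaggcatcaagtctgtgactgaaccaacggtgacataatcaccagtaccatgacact
FABP1, probe A_72_P753970: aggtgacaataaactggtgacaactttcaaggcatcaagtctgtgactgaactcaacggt
HAL, probe A_72_P455827: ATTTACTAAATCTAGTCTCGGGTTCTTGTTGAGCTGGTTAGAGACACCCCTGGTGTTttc
HAL, probe A_72_P013776: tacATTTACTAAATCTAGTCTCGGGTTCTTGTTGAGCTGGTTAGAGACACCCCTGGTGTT
ANGPTL7, probe A_72_P294744: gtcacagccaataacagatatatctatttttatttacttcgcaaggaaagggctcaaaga
ANGPTL7, probe A_72_P440611: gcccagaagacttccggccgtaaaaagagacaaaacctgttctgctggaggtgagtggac
RPS6KB1, probe CUST_6671_PI428644611: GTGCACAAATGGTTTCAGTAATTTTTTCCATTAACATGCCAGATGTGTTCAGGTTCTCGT
RPS6KB1, probe CUST_118_PI428639846: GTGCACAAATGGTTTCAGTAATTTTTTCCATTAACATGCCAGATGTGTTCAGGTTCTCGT

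The FABP1 probes CUST_4548_PI428644611 and A_72_P176371 share a run of 46 bases, the HAL pair one of 57, and both RPS6KB1 probes are the same 60 bases printed at separate spots. The FABP1 probes A_72_P753970 and A_72_P761584 share 24 bases with each other and at most 6 with the other two. Both ANGPTL7 probes have no more than 5 bases in a row in common. So FABP1 and ANGPTL7 were measured by separate stretches of sequence, and HAL and RPS6KB1 by 1 stretch each.

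The next set holds single probes of named genes with high limits and some of the probes that could not be named, among them the brightest of all, an overlapping pair and one decided by a single array.
CPNE6: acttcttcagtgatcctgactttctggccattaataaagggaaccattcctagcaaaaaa
WNT5A: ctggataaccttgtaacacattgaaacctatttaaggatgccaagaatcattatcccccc
RDH12: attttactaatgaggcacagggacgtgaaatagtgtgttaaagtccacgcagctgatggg
TNFAIP3: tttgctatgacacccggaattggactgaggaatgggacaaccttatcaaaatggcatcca
SLC26A3: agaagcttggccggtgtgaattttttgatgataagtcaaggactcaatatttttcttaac
Unnamed probe A_72_P496301: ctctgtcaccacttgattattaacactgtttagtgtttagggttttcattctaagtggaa
Unnamed probe A_72_P776040: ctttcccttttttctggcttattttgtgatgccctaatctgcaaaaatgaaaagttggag
Unnamed probe A_72_P011441: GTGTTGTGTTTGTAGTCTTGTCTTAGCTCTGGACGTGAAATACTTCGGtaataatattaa
Unnamed probe CUST_6767_PI428644611: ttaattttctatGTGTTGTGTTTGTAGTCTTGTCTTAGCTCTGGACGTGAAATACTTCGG
Unnamed probe A_72_P796197: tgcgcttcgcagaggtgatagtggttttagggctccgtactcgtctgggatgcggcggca

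The name TNFAIP3 comes from another probe of the array with the same 60 bases, since the deposited annotation of this spot gives only an expressed sequence tag. A_72_P011441 and CUST_6767_PI428644611 overlap by 48 bases and so read the same unnamed transcript. Of the 218 probes, 20 share a run of at least 30 bases with some other probe of the array on either strand, and 8 share one with another of the 218.

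Most of the 218 signals were faint. On the log2 scale of the quantile-normalized intensities, the mean of the 3 t(1;14) arrays lay between 3.85 and 7.16, with a median of 4.50. The 36241 probes detected on all 3 t(1;14) arrays had a median of 8.31, and 3.23% of them were no brighter than the median of the 218. On the other arrays the medians of the 218 were 2.78 in the controls and 2.76 in the oligospermic testis. The median SD over 3 arrays was 0.27 in t(1;14), 0.48 in the controls and 0.39 in the oligospermic testis. The GC content of the 218 had a median of 40% against 41.7% over the array.

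Since the other groups had no array well above background, a fold is given as a limit. It sets the mean log2 level of t(1;14) against, on each dim array, the higher of the spot's own level and the lowest level that was well above background on that array. Over the controls the limits ran from 1.16-fold to 12.03-fold, with a median of 1.86-fold, and 92 of the 218 probes were at least 2-fold higher and 14 at least 4-fold. Over the oligospermic testis they ran from 1.11-fold to 11.1-fold, with a median of 1.73-fold, and 72 probes reached 2-fold and 9 reached 4-fold. With normexp background correction, which adds an offset to every spot, the median limit over the controls was 1.20-fold, and the limits over the controls of the 26 probes of genes taken by the naming rule lay between 1.144-fold and 2.636-fold. Of the 52 limits of these 26 probes over both groups, 49 moved by more than the spread between arrays with normexp and 30 with the 1st percentile of detected signals as the floor, so the limits given for single genes hold for the processing used here. Both comparisons use the same t(1;14) arrays. All 3 t(1;14) arrays lay above all 6 others for 213 of the 218 probes on the normalized scale, and for 5 the groups overlapped. That ordering held for 32.2% of all 40643 probes tested against the controls, and nothing is read from the count of the 218, which were chosen by it in part.

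How firmly a probe belongs to the 218 depended on its distance from the detection threshold. The lowest t(1;14) signal of a probe was 1.24 times the threshold of its array at the median, and the highest signal among the other 6 arrays was 0.797 times the threshold. The probe nearest inside stood at 1.0021 times the threshold on its weakest t(1;14) array, and the nearest one outside at 0.99957. From the other side, the brightest spot of the 218 on a control or oligospermic array reached 0.99935 of its threshold, and the nearest excluded probe 1.0003. A further 330 probes were detected on 2 of the 3 t(1;14) arrays and on no other array, and 239 on all 3 and on 1 of the other 6.

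Array 2 of t(1;14) decided many of these memberships. Its threshold was 25.6 intensity units, against 12.3 and 10.5 on arrays 1 and 3, 12.7 to 14.8 on the control arrays and 12.6 to 18.2 on the oligospermic arrays. Of the 330 probes detected on 2 of 3 t(1;14) arrays, 258 were missing on array 2. Without that array the rule found 476 probes, and without control array 3 it found 335. Leaving out an array can only keep or add probes under this rule, so that the number did not fall was fixed in advance. With 1 normalized threshold for all 9 arrays in place of the thresholds of the scanner software, 304 probes were detected only in t(1;14), and 143 of them were among the 218. With the flag for a positive and significant signal in place of the one for well above background, the rule found 94 probes, of which 2 were among the 218. All but those 2 of the 218 thus failed the rule with that flag. Which arrays made them fail is not given here. Detection only in t(1;14) therefore refers to the well above background flag and does not mean that the other testes gave no signal. At the median, the highest control or oligospermic signal of the 218 was 0.797 times the threshold.

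Of the 218 probes, 55 could be given a gene symbol and stand for 49 genes. That is 25.2% of the 218, beside 35.0% of all probes of the array. Among the other 163, 75 had no description, 53 had a note of partial similarity to a protein, often of a distant organism, 31 were complementary DNA clones or expressed sequence tags, 3 had an Ensembl description without a symbol, and 1 was designed against the antisense strand of an annotated transcript. Most genes described below were named by a rule: those with more than 1 of the 218 probes, the 20 probes with the highest limits over the controls that carry a symbol, and those in lists of pathways and cell type markers. Others, such as CA1, AS3MT, CDKN1A, PHKA1, EFNB2, ACTN2 and PRDM10, were named after their values were seen.

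Secreted signals come first. WNT5A, a ligand of the WNT family that acts mostly outside the beta-catenin route, gave log2 levels of 6.02, 6.29 and 6.26 on the t(1;14) arrays. Its levels were 3.04, 4.09 and 2.37 on the control arrays and 3.31, 3.45 and 3.62 on the oligospermic arrays. The t(1;14) arrays lay close together and 1.93 log2 units or more above every other array, so WNT5A was at least 5.99-fold higher than in the controls and at least 5.45-fold higher than in the oligospermic testis. ANGPTL7, a secreted protein related to the angiopoietins, had limits of 2.19-fold and 2.01-fold over the controls by its separate probes. Probe A_72_P294744 read 4.60, 4.77 and 4.75 in t(1;14), no more than 2.42 on a control array and no more than 3.04 on an oligospermic array. PR39, a proline-rich antimicrobial peptide of the cathelicidin family made by pig leukocytes, read 5.53, 4.40 and 5.61 in t(1;14) and at most 2.59 on the other arrays. Its limit over the controls was 3.04-fold, with array 2 the lowest of the t(1;14) arrays.

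Intracellular signalling proteins form the second group. TNFAIP3, a ubiquitin-editing enzyme that restrains NF-kappa-B signalling, read 5.45, 6.10 and 5.44 in t(1;14), 3.61, 3.54 and 3.05 in the controls and 3.96, 2.62 and 3.08 in the oligospermic testis, which gave limits of 4.19-fold and 3.70-fold. CPNE6, a copine that binds phospholipids in the presence of calcium, was the brightest named probe, at 6.46, 7.21 and 6.92 in t(1;14). It read 2.96, 3.92 and 2.09 in the controls and 3.00, 3.60 and 3.01 in the oligospermic testis, so the groups lay far apart, at a limit of 9.77-fold over the controls and 8.98-fold over the oligospermic testis. RPS6KB1, the S6 kinase that acts below mTOR, was much fainter: its 2 identical spots read 4.11, 5.33 and 3.87 in one place and 3.94, 3.99 and 4.12 in the other. The limits over the controls were 1.81-fold and 1.36-fold, and the difference between the spots lay mainly on array 2.

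Enzymes of small molecules and glycans follow. HAL, histidine ammonia-lyase, converts histidine to urocanate. Its probe A_72_P455827 read 6.16, 5.82 and 5.89 in t(1;14), 2.33, 1.49 and 2.61 in the controls and 1.46, 1.40 and 1.48 in the oligospermic testis. The overlapping probe A_72_P013776 read 5.69, 5.95 and 5.80 in t(1;14) and at most 3.56 on the other arrays. These probes, which read 1 stretch of HAL, were at least 5.21-fold and 4.71-fold above the controls, with no overlap between groups. The brighter HAL probe A_72_P647569, detected on all 9 arrays, did not show this, with means of 8.88 in t(1;14) and 9.14 in the controls. RDH12, a retinol dehydrogenase that reduces retinal, read 5.54, 5.78 and 5.71 in t(1;14), 1.92, 3.53 and 1.74 in the controls and 3.31, 3.46 and 1.77 in the oligospermic testis, for limits of 4.29-fold and 3.94-fold. ARSK, a lysosomal sulfatase, and B3GNT7, an N-acetylglucosaminyltransferase of keratan sulfate synthesis, had limits of 2.59-fold and 2.46-fold over the controls. DCT, dopachrome tautomerase of the melanin pathway, read 4.31, 5.54 and 4.29 in t(1;14), where array 2 stood apart, with a limit of 2.20-fold.

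FABP1, the liver form of the fatty acid binding proteins, had the most probes of any gene, and no FABP1 probe of the array lay outside the 218. In t(1;14) its 4 probes read between 4.46 and 5.21 over all 12 spots. The highest control level of any of them was 4.06 and the highest oligospermic level 3.78. The limits over the controls were 2.66-fold, 2.37-fold, 2.33-fold and 2.17-fold, and over the oligospermic testis 2.72-fold, 2.32-fold, 2.14-fold and 2.00-fold. So both separate stretches of the transcript gave faint signals of much the same size.

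Carriers and pumps followed. SLC26A3, a chloride and bicarbonate exchanger of the gut, read 5.40, 5.44 and 5.54 in t(1;14), 3.11, 3.32 and 3.05 in the controls and 3.66, 3.17 and 3.14 in the oligospermic testis. The groups did not overlap, and the limits were 3.69-fold and 3.39-fold. Its other probe, A_72_P213447, did not show this, with 1.68, 1.76 and 5.25 in t(1;14), and was well above background on the last of these arrays alone. ATP2B1, a calcium pump of the plasma membrane, and SLC3A2, the heavy chain of several amino acid carriers, had limits of 2.41-fold and 2.12-fold over the controls. Of the proteins of the cytoskeleton and membrane, PACSIN1, which bends membranes in endocytosis, had a limit of 2.86-fold over the controls, COBLL1, related to the actin nucleator cordon-bleu, one of 2.39-fold, and KRT18, a keratin of simple epithelia, one of 2.32-fold. COBLL1 read 4.65, 5.11 and 4.74 in t(1;14) and no more than 1.61 on any of the other 6 arrays, a wider gap than its limit shows because the limit is set by the detection threshold. SETDB1, a histone H3 lysine methyltransferase, had a limit of 2.37-fold.

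Of the unnamed probes, A_72_P496301 had the highest limit of all, with 7.23, 6.82 and 7.44 in t(1;14), 1.43, 2.25 and 1.49 in the controls and 3.24, 3.71 and 3.26 in the oligospermic testis. That was at least 12.03-fold above the controls and 11.1-fold above the oligospermic testis. A_72_P776040, designed on a clone of liver origin, read 6.86, 6.99 and 6.37 in t(1;14) and at most 4.08 elsewhere, a limit of 8.41-fold over the controls. A_72_P011441 read 5.64, 6.61 and 5.88 and the overlapping CUST_6767_PI428644611 read 5.16, 4.86 and 5.62, with limits of 5.53-fold and 3.11-fold over the controls. In both, every t(1;14) array lay over 2 log2 units above every other array.

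In A_72_P796197 and A_72_P125576, 1 array set the value. They were the only ones of the 218 with an SD over 1 log2 unit among the t(1;14) arrays, and were singled out after their values were seen. A_72_P796197 read 4.36, 11.29 and 4.29, for a limit of 8.42-fold over the controls, which was 1.68-fold without array 2. For A_72_P125576 the limit over the controls of 2.65-fold became 1.42-fold without array 2. On the surface of array 2 the spot of A_72_P796197, at row 335 and column 105, lay next to a spot at row 336 of the same column that read 15.44 there and at most 2.74 on the other t(1;14) arrays. The spot of A_72_P125576, at row 308 and column 150, had neighbours that read 15.92 and 14.79 on array 2 and at most 1.74 on the other t(1;14) arrays. Array 2 held 48 probes more than 4 log2 units above both other t(1;14) arrays, against 5 and 6 on arrays 1 and 3, and 7 of the 218 had such a spot of some array within 2 rows and 1 column. DCT was among these 7, as were A_72_P011441 and the unnamed CUST_6827_PI428644611 on array 2. The part of such neighbours in the values was not tested.

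Probes printed more than once gave second spots of the same sequence, read from the same RNA on the same arrays. Besides the RPS6KB1 pair, 9 of the 218 had an identical 60-base probe elsewhere that was not among the 218. Each of those spots failed the rule by definition, so the counts below are described and are no independent check. Of these 9 other spots, 7 were well above background on all 3 t(1;14) arrays, 2 on no control and no oligospermic array, and 1 on all 9 arrays. In 5 of the 9, every t(1;14) array lay above all 6 others, an ordering that held for 32.2% of all probes tested against the controls. The second spot of TNFAIP3 read 5.46, 5.95 and 5.64 in t(1;14), 3.97, 3.57 and 3.37 in the controls and 3.62, 2.56 and 3.08 in the oligospermic testis, and was left out of the 218 because 1 control array passed the threshold. The probe A_72_P286569 had means of 4.29 in t(1;14) and 2.87 in the controls, whereas the identical spot elsewhere read 5.37 and 4.76 and was well above background on all 9 arrays. Both copies of a sequence met the rule for RPS6KB1 alone among these repeated probes.

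A gene was detected in t(1;14) alone only if none of its probes was well above background in the other groups. For 26 of the 49 genes, another probe was well above background on all 9 arrays, so that the gene had a detected probe in every group. For 10 genes the array held none but the probes among the 218: ANGPTL7, B3GNT7, COBLL1, CPNE6, CYP2R1, FABP1, IQGAP2, KRT18, PACSIN1 and WNT5A. For 4 more, ARSK, CA1, GPR116 and PR39, the other probes were well above background on no array, and for the other 9 they were so on some arrays. CA1, a carbonic anhydrase of red cells and gut, had 3 other probes with no signal beside its one detected probe, whose limit was 2.10-fold over the controls.

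The 112 other probes of 39 of these genes were not used to choose the 218, though they were read from the same RNA on the same arrays and are not independent of them. Against the controls, 90 could be tested and 9 were called higher in t(1;14) by limma, at an adjusted p of 0.01 or less and a log2 fold change of 2 or more in size, or 7 of 81 without the probes that share sequence with the 218. Of all probes tested, 1.31% were called higher. One of the 90, which entered the test only through the controls, was called lower, where 4.3% of all probes tested were. Without t(1;14) array 2, 6 of the 90 were called in place of 10. The share of all probes called in that fit is not given here, so nothing is read from the drop. With normexp background correction, 1 of the 90 was called, or 1.11%, beside 2.45% of all probes called in either direction. Some of the 90 could be tested only because they were detected in t(1;14), so sizes are given for the 58 that were well above background on all 9 arrays, a choice made after the values were seen. They belonged to 26 genes, ATP2B1 and TBX3 with 6 each and PHKA1 with 5, and probes of 1 gene are not separate observations. Of these 58, 6 were called higher, beside 1.05% of all such probes. Their median log2 fold change was 1.02 against 0.15 over all 33676 such probes, and 51 of the 58 were above 0, which is 87.9% against 57.8% of all. In 43 of the 58, or 74.1%, all 3 t(1;14) arrays lay above all 6 others, beside 34.5% of all such probes.

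Against the oligospermic testis, 91 of the other probes could be tested, 7 were called higher and 1 lower, where 1.93% of all 40567 probes tested were called higher and 4.89% lower. With normexp 2 of the 91 were called, or 2.20%, beside 2.73% of all probes. Over the 58 probes detected on all 9 arrays the median log2 fold change was 1.097 against 0.14 for all such probes. This comparison shares the t(1;14) arrays with the one before. Between the oligospermic testis and the controls, which the rule treats alike, limma called 0 of 78 of these probes, and 0.073% of all 39713 probes tested. At an unadjusted p under 0.05, 10 of the 78 differed, beside 9.84% of all probes, and their median log2 fold change was 0.02.

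The called probes belonged to few genes, and those given here were named after their values were seen. AS3MT, the methyltransferase of arsenic, had 2 other probes, and both rose: A_72_P667173 read 9.79, 10.16 and 9.90 in t(1;14), 7.95, 7.77 and 7.46 in the controls and 8.23, 7.67 and 7.62 in the oligospermic testis. Its log2 fold change over the controls was 2.23 (SE 0.17, adjusted p = 0.00024 by limma), and that of A_72_P490198 was 2.11 (SE 0.15, adjusted p = 0.00017 by limma). The AS3MT probe among the 218 was far fainter, at 4.22, 4.54 and 4.28 in t(1;14) and no more than 2.19 elsewhere. For RDH12 the other probes were among the bright ones of the array: A_72_P058381 read 13.72, 14.03 and 13.86 in t(1;14) and 10.72, 11.74 and 10.89 in the controls, a log2 fold change of 2.75 (SE 0.28, adjusted p = 0.00059 by limma). Against the oligospermic testis its log2 fold change was 1.99, just under the threshold of 2. A_72_P772711 of RDH12, with a log2 fold change of 1.93 over the controls, was not called. Both of these probes were well above background on all 9 arrays, so that of the RDH12 probes only the faint CUST_668_PI428644611 was limited to t(1;14).

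SFXN3, a mitochondrial serine carrier of the sideroflexin family, was read at 8.52, 8.92 and 8.76 in t(1;14) by probe A_72_P407833, at 5.50, 6.63 and 5.91 in the controls and at 5.21, 4.53 and 4.45 in the oligospermic testis. Its log2 fold changes were 2.72 (SE 0.29, adjusted p = 0.00073 by limma) and 4.00 (SE 0.23, adjusted p = 3.1e-05 by limma). The identical second spot of TNFAIP3 and probe CUST_328_PI428644611 of HAL were also among the calls. They entered the test only through their detection in t(1;14), on 1 and 0 control arrays, so their calls add little to the selection. A brighter HAL probe, A_72_P647569, did not follow, with means of 8.9 in t(1;14) and 9.1 in the controls. TGS1, the enzyme that forms the trimethylguanosine cap of small nuclear RNAs, had 1 of 4 other probes called, at a log2 fold change of 2.13 (SE 0.37, adjusted p = 0.0042 by limma).

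PRDM10, a zinc finger protein of the PRDM family, went the other way. Its probe CUST_4791_PI428644611 read 2.23, 1.495 and 1.39 in t(1;14), 5.18, 5.81 and 4.83 in the controls and 5.30, 5.02 and 5.48 in the oligospermic testis. It was well above background on none of the t(1;14) arrays and so entered the test only through the controls, where it was high. Limma called it lower (adjusted p = 0.0004 by limma), at least 3.17-fold below the controls, and the call adds little to that filter. The PRDM10 probe among the 218 read 3.77, 4.29 and 3.88 in t(1;14), and a further one, detected on all 9 arrays, had a log2 fold change of 0.66 and was not called. Probes of 1 gene thus passed the threshold in opposite groups.

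Several genes had other probes with adjusted p at most 0.01 but a log2 fold change under 2. CDKN1A, an inhibitor of cyclin-dependent kinases, had 3 bright probes with log2 fold changes of 1.52, 1.55 and 1.56 over the controls. ATP2B1 had 6 other probes with log2 fold changes from 1.09 to 1.62, and PHKA1, a subunit of phosphorylase kinase, had 6 from 0.96 to 1.27. Below 0, EFNB2, an ephrin ligand, had a probe at -1.92 (adjusted p = 0.0016 by limma), and ACTN2, an actinin of muscle, had one at -1.22 (adjusted p = 0.0045 by limma). The ACTN2 probe was well above background on 1 t(1;14) array and 3 control arrays, so it entered the test only through the controls. Of the 58 probes detected on all 9 arrays, 35 had an adjusted p of at most 0.01 against the controls, or 60.3%, beside 33.1% of all such probes. SETDB1 had 2 detected other probes with log2 fold changes of -0.14 and -0.09, and neither was called.

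By the chromosome given for the gene name in the pig assembly Sscrofa11.1, 47 of the 49 genes could be placed. The translocated chromosomes held 2 of them on chromosome 1 (4.26%, beside 10.02% of the 6499 tested genes placed) and 5 on chromosome 14 (10.6%, beside 10.4%). The genes on chromosome 14 were ACTN2, AS3MT, SFXN3, SFXN4 and TBX3. Chromosome X held PHEX and PHKA1 (4.26%, beside 3.46%). No sequence positions were read, since no genome of the build used for the array was at hand.

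Within the WNT, BMP and NOTCH list, 15 of 19 genes had a probe and WNT5A alone was among the 218. By the brightest probe of each gene, 11 were tested against the controls. Over all probes tested, 1.31% were called higher and 4.3% lower, and the counts of this and the other lists stand beside those shares. WNT5A was selected for this difference and its call is left out. No other gene of the list was called higher, and BMP5, a bone morphogenetic protein, fell by 4.66 on the log2 scale (SE 0.43, adjusted p = 0.00042 by limma). JAG1, a NOTCH ligand, had a log2 fold change of 1.72 and was not called. Of the list of solute carriers of amino acids and organic ions, 11 of 13 genes had a probe, SLC3A2 had 1 probe among the 218, and 1 of 9 tested was called higher: SLC7A9, a cystine carrier, with a mean of 7.00 in t(1;14). It was well above background on 1 control and 0 oligospermic arrays and so entered the test only through the t(1;14) arrays. SLC3A1, its partner chain, had a log2 fold change of 0.51. The brightest SLC3A2 probe, detected on all 9 arrays, had a log2 fold change of 0.93 and was not called.

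None of the genes of the other lists had a probe among the 218. Against the controls, where 1.31% of all probes were called higher and 4.3% lower, limma called 6 of 18 tested genes of cholesterol supply and steroid synthesis higher, 2 of 11 of iron and copper handling higher and 1 lower (one of the 2, STEAP4, a metalloreductase, was detected on 0 control arrays and entered the test only through t(1;14)), and 1 of 8 of the glucocorticoid response and 1 of 6 of the relaxin and insulin-like peptides higher. It called 1 of 7 acute phase and antimicrobial genes and 1 of 14 chemokines and cytokines lower. The last, IL10, was detected on no t(1;14) array and entered the test only through the controls. Leydig cell and spermatid markers such as INSL3 and PRM1 were well above background on all 9 arrays, as the labelled tissue requires. The summed signal of the 8 Leydig markers was 144650 to 156670 in t(1;14), 66214 to 69480 in the controls and 53119 to 70209 in the oligospermic testis, and 4 of the 8 were called higher. INSL3 was saturated in 3 of the 72 spots summed. The sum of the 6 spermatid markers was 219220 to 253760, 321000 to 340740 and 312970 to 335160, and 1 of the 6 was called lower. Of the 54 spots in that sum 27 were saturated, in 4 of the 6 probes, so these sums do not measure the size of the shift. The 2 probes that were saturated on no array were those of ACRV1, an acrosomal protein, which fell by 2.40 on the log2 scale (adjusted p = 0.00012 by limma), and of CAPZA3, a sperm actin-capping protein, with a log2 fold change of -1.63 that was not called. The part of these shifts in the signals of the 218 probes was not tested.

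No gene was called against the controls in the lists of Sertoli cells, peritubular and smooth muscle cells, endothelium, spermatogonia, spermatocytes, macrophages, T and NK lymphocytes, B lymphocytes and plasma cells, mast cells, neutrophils, erythroid cells, epididymis, adrenal cortex, adipocytes and skeletal muscle. Some of their markers had a smaller fold at an adjusted p of at most 0.01 by limma, as had 31.2% of all probes tested. Lower in t(1;14) on the log2 scale were WT1 (-1.43), CNN1 (-1.09), SPO11 (-1.03) and DDX4 (-0.91). Higher were PECAM1 (1.41), HORMAD1 (0.97), UCHL1 (0.87) and GFRA1 (1.30, tested only through its detection in t(1;14)). Of the fixed lists, 2 of 6 spermatocyte and 3 of 5 spermatogonium genes had a probe. Against the oligospermic testis, the epididymis marker LCN5 was called lower in t(1;14), with a log2 fold change of -4.35 and means of 4.31 in t(1;14), 8.66 in the oligospermic testis and 5.81 in the controls. In the lymphocyte list 5 of 7 measured genes, and in the neutrophil list 3 of 5, were well above background on no array. Neither of the 2 measured adrenal cortex genes could be tested. The epididymis marker RNASE10 read 13.37 on t(1;14) array 2 and 4.43 and 4.81 on arrays 1 and 3 by its brightest probe, while its other probe read 5.35, 5.49 and 5.15, so that its high summed signal on array 2 rested on 1 spot.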

How the data were processed

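Testis RNA of 3 t(1;14), 3 control and 3 oligospermic samples was labelled by the authors with cyanine 3 and hybridized to a custom porcine array, and every group had 1 array on each of the 3 slides. The deposited spot values are intensities from Agilent Feature Extraction 11.5.1.1, background-subtracted by that software and not normalized between arrays. Quantile-normalized log2 values were deposited too, for 38759 of the 60889 probes, and 184 of the 218 are among them; these served as an alternative.

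Here the log2 of the processed intensity was quantile normalized across the 9 arrays. Between 2 groups, probes well above background without an outlier flag on at least 2 of 3 arrays of a group entered limma 3.58.1, run under R 4.3.3 with Benjamini-Hochberg adjustment. A probe was called where the adjusted p was no more than 0.01 and the log2 fold change was 2 or more in size. The fit was tested on simulated data. Tables were handled in Python 3.11.15 with pandas 2.3.3 and numpy 2.4.6. The p-values measure the spread between these arrays, which may be technical. The number of arrays limits the precision. Probes well above background per array, the depth behind the values, numbered 37087 to 40632.

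Gene symbols came from the deposited names, from the RefSeq genes of Sscrofa11.1 by accession or name, or from an identical probe. The members of the 218 and the gene lists (17 of cell type markers, 8 of pathways) were chosen with earlier results of these data known. Genes were named in the text if they had more than 1 of the 218 probes, one of the 20 highest limits over the controls with a symbol, or a place in a list, and some genes that the rule takes in are not reported here. Alternatives were another detection flag, looser detection rules, normexp background correction, the deposited values, other filters and thresholds, slide or replicate number as a block, and leaving out each array. Replicate numbers were not used as pairs: in the comparisons with t(1;14) they do not follow the slides, and same-numbered arrays did not all deviate together. For the oligospermic and control arrays the number equals the slide, and the deviations of the 3 pairs correlated at 0.49, 0.14 and 0.10.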

Additional observations from a re-analysis of the deposited data

How the results depend on the processing

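The number of probes detected only in t(1;14), 218, was 94 with the flag for a positive and significant signal in place of the well above background flag (2 probes shared with the 218), 548 with detection on at least 2 of 3 t(1;14) arrays and 457 with at most 1 of the 6 other arrays allowed. Leaving out 1 array at a time, which can only keep or add probes, gave 225 to 476. The ends came without oligospermic array 2 and without t(1;14) array 2. It was 203 without outlier flags, 299 without use of the oligospermic arrays and, chosen after seeing the data, 304 with 1 normalized threshold. Each probe had 1 spot, so a rule on most of its spots is the same rule. The median limits of 1.86-fold and 1.73-fold were 1.20-fold over the controls and 1.21-fold over the oligospermic testis with normexp background correction, which adds an offset of 50 intensity units to every spot, and 1.63-fold to 2.12-fold and 1.60-fold to 1.85-fold with 1 array left out. Of the other probes of the same genes, 10 were called against the controls and 8 against the oligospermic testis in the report. These counts became 1 and 2 with normexp, 6 and 5 when both groups had to pass the filter and 43 and 47 at a log2 fold change of at least 1. As shares these were 1.11% and 2.20% with normexp, 8.22% and 6.94% with the filter and 47.8% and 51.6% at the lower fold, beside 2.45% and 2.73%, 4.82% and 5.55%, and 19.1% and 24.96% of all probes tested. With 1 array left out the counts ranged from 6 to 9 and from 7 to 11. With the replicate block they were 8 and 8, and with the slide as a block 9 and 8. The shares of all probes called in these fits are not given here, so nothing is read from these counts. Between the oligospermic testis and the controls, 0 were called under every alternative run, and over all probes tested none was called with the replicate block, which is the slide there, against 29 without it. Same-numbered arrays correlated in their deviations at -0.29, -0.20 and 0.14 between t(1;14) and the controls. Most of the 218 signals lay close to the threshold, which limits what can be said of them. All but 2 of the 218 probes failed the rule with the positive and significant flag, so their restriction to t(1;14) depended on the flag used.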
